A study of Mus musculus with 27 samples.

Results

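The Wnt target genes described here are 7 genes, Axin2, Sp5, T, Lef1, Nkd1, Tcf7 and Cdx1, followed over 27 RNA sequencing libraries in 6 groups. They were listed by symbol, and each symbol matched 1 Ensembl ID through GENCODE M21. All 7 passed the filter on low counts, as did 18363 of the 53801 genes in the table. The cells were hybrid mouse embryonic stem cells (BL/6J x CAST-EiJ) named TX1072, in which doxycycline switches on Xist, the RNA that silences the X chromosome. In both lines used, the SPEN protein carried an auxin-inducible degron (AID), so that auxin depletes it. The SPOC line also expressed BglG-GFP-SPOC, in which the SPOC domain of SPEN is fused to the RNA-binding protein BglG, and the GFP line expressed BglG-GFP, the same fusion without SPOC. Cells of each line had Dox+Auxin (auxin alone for 12 h, then doxycycline with auxin for 24 h), Dox (doxycycline at 1 ug/mL for 24 h) or no treatment. Each group held 5 libraries in the SPOC line and 4 in the GFP line. All groups grew with serum, LIF and the 2i inhibitors CHIR99021 at 3 uM and PD0325901 at 1 uM. Both lines carried the degron, so auxin itself and SPEN depletion cannot be told apart. No group had auxin without doxycycline, so changes with auxin can be read only under doxycycline. Doxycycline and Xist induction cannot be told apart. Each construct is represented by 1 line, so the construct and the line cannot be told apart either.

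Wnt proteins bind Frizzled receptors and LRP coreceptors and thereby halt a destruction complex, built on Axin, APC and the kinase GSK3, that otherwise marks beta-catenin for degradation. Stabilised beta-catenin enters the nucleus and joins TCF and LEF proteins on DNA, where it switches their target genes on or relieves their repression. CHIR99021 inhibits GSK3, so cells in 2i medium have this step of the pathway activated without added Wnt. In mouse embryonic stem cells this supports self-renewal, mainly through relief of repression by Tcf7l1 (also called TCF3), while genes of the primitive streak such as T respond to the same signal in the embryo.

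The promoters of 4 members are shown: Axin2, Sp5 and T, which rose against Dox with auxin in the GFP line, and Lef1, which fell. Nkd1 and Tcf7 also rose and Cdx1 also fell in that comparison, and they are not shown. Lef1 has several windows, of which 1 is shown. Each window runs 5′ to 3′ on the gene's strand from 250 bases before to 50 bases after a RefSeq start (RefSeq, GRCm38.p6). The capitals mark a match to CTTTGAT or CTTTGAA, short forms of the TCF and LEF recognition sequence, searched on both strands.
Axin2, chr11:108920099-108920398, plus strand: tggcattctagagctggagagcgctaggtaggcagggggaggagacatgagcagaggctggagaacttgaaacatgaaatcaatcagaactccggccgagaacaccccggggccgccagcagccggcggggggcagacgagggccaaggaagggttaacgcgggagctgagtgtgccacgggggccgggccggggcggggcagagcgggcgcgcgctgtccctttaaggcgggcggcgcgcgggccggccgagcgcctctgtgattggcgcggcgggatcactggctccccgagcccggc
Sp5, chr2:70474673-70474972, plus strand: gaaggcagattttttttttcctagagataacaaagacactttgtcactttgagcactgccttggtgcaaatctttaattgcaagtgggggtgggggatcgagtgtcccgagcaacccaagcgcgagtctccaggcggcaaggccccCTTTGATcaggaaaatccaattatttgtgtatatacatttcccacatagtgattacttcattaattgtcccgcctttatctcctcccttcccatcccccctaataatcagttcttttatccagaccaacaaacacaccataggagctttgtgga
T, chr17:8434173-8434472, plus strand: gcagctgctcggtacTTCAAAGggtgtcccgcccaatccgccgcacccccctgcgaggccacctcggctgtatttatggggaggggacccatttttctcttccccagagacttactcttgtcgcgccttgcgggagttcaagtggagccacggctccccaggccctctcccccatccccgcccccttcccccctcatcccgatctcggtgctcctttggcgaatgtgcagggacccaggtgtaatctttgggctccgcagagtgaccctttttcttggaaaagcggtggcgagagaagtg
Lef1, chr3:131110047-131110346, plus strand: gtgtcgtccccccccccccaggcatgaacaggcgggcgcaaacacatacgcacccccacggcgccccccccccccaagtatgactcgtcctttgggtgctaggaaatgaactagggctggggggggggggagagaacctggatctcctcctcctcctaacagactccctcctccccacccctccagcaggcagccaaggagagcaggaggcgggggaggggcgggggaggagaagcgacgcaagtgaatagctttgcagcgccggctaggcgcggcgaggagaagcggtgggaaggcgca
The Sp5 window held 1 match, CTTTGAT on the gene's strand, starting 104 bases before the start. The T window held 1 match, CTTTGAA on the opposite strand, 235 bases before the start. No match stood in the Axin2 and Lef1 windows or in those of Nkd1 and Tcf7. The only Nkd1 window, chr8:88527383-88527682, lies inside the GENCODE gene, which starts at 88521354, so that start was not searched. From the RefSeq table, 10 windows of 6 of the 7 members were searched, and 2 of these windows had a match. No window of Cdx1 was searched. Of all 32851 windows of 300 bases in the table, 3.729% held CTTTGAT, 5.135% held CTTTGAA and 8.651% held either, so these short sequences are common. A match describes the letters only and is not evidence of binding.

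Libraries held 28936459 to 45489094 counts, of which the members took between 98 (Nkd1) and 4124 (Axin2) each. Values are CPM, read counts divided by a library size scaled by the trimmed mean of M values (TMM), and scaling factors ran from 0.980 to 1.02. Xist, the check of the doxycycline label, averaged 338 CPM in SPOC Dox+Auxin, 385 in SPOC Dox, 500 in GFP Dox+Auxin, 840 in GFP Dox and 6.47 in GFP untreated libraries. In the SPOC untreated group, the library labelled replicate 2 held 178 CPM of Xist and the other 4 held 1.03 to 1.69. That library goes against its label. Tests of the members against untreated cells within the SPOC line are therefore given with and without it. So are the Axin2 test between untreated lines and some of the levels per length. Spen mRNA averaged 1052 CPM in SPOC Dox+Auxin, against 353 in SPOC Dox and 343 in SPOC untreated, and 860 in GFP Dox+Auxin, against 197 in GFP Dox and 174 in GFP untreated. The fusion in the SPOC line holds a part of SPEN, and whether reads from it were counted as Spen was not tested. The degron acts on the protein, which was not measured. Of 8 embryonic stem cell markers, including Pou5f1, Sox2 and Nanog, all were expressed in every group. Lists of other cell types were mixed: the fibroblast genes Col3a1, Lum and Postn were at or near 0 while Thy1 averaged 5.06 and Col1a1 1.69 CPM per kilobase of exon, and the trophoblast gene Elf5 was near 0 while Tfap2c averaged 21.6, Cdx2 6.45 and Eomes 2.84.

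When auxin accompanied doxycycline, Axin2, Sp5, Nkd1 and Tcf7 rose and Lef1 and Cdx1 fell against Dox in both lines. Axin2, Sp5, Lef1 and Cdx1 also passed against untreated cells in both lines. The SPOC call of Cdx1 was lost without the library labelled untreated replicate 2 and under other alternatives given below. Against Dox, 6 of 7 members changed in the SPOC line (4 higher, 2 lower) and all 7 in the GFP line (5 higher, 2 lower), by edgeR's quasi-likelihood test at an adjusted p of 0.05. Of all genes tested, 32.0% were called in this comparison in the SPOC line (16.6% higher, 15.4% lower) and 47.6% in the GFP line (24.7% higher, 22.9% lower). The sizes were moderate, from a fold of 0.568 for Cdx1 to 1.64 for T, both in the GFP line.

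**Figure D1:**
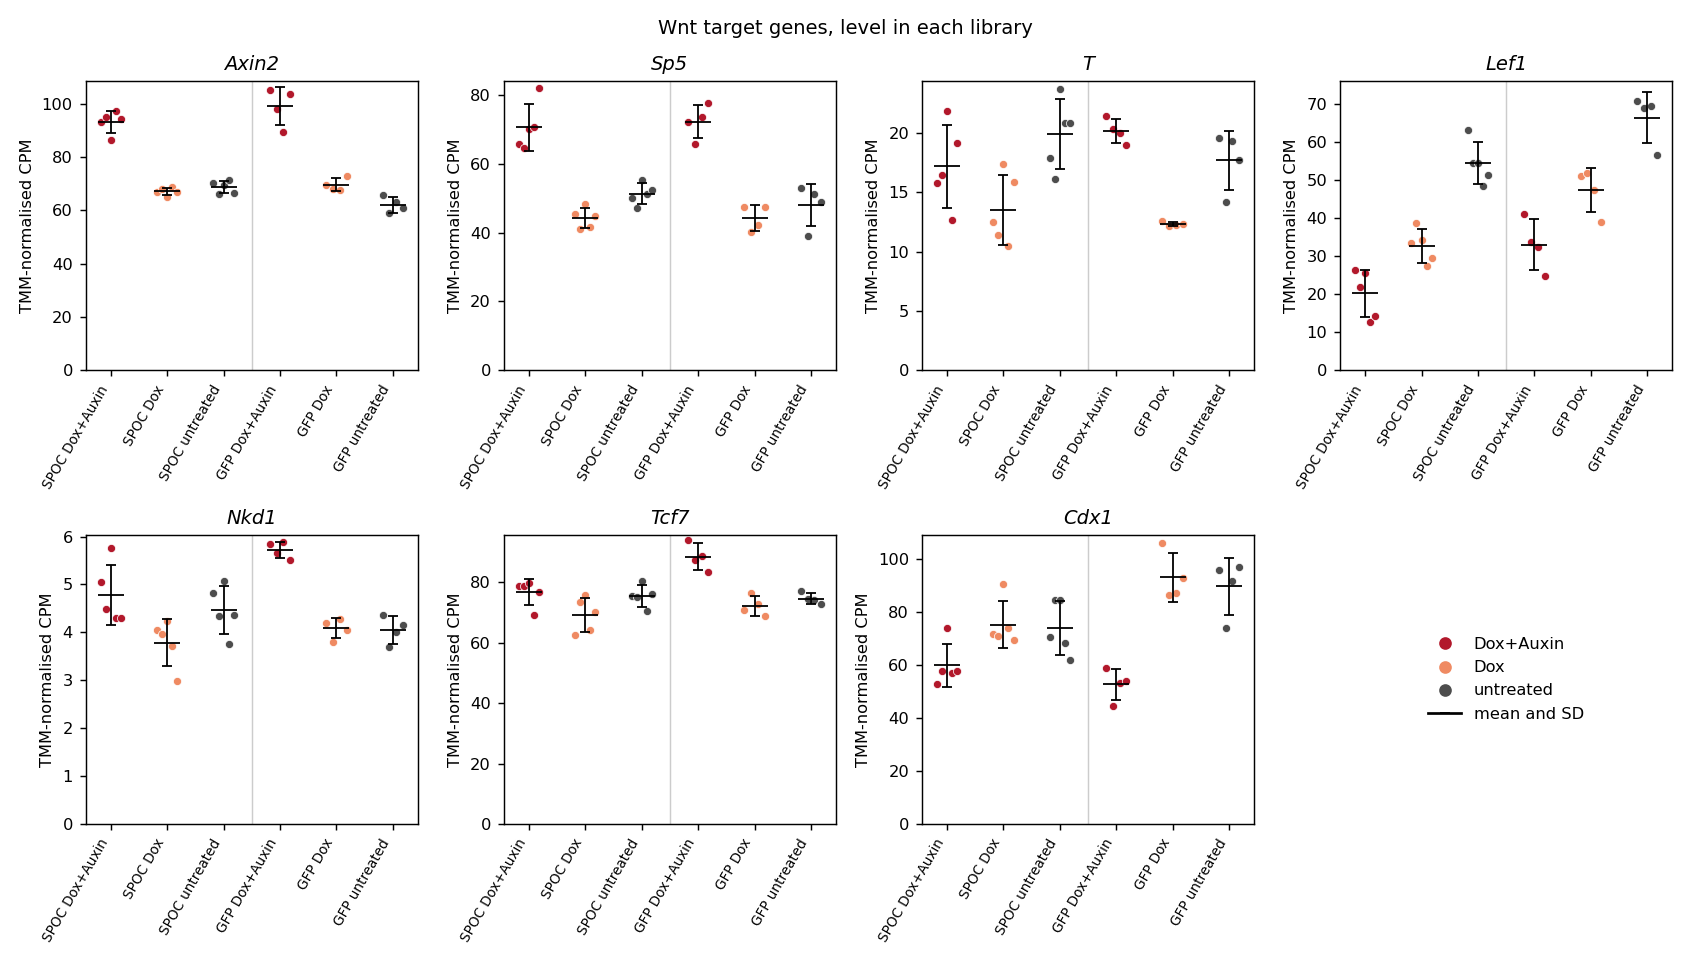
Level of each of the 7 Wnt target genes (TMM-scaled CPM, linear axis from 0) in every library, by line and treatment. Points are libraries and horizontal lines are group means, with bars for the SD (n = 5 per SPOC group, n = 4 per GFP group). In both lines the Dox+Auxin libraries of Axin2 and Sp5 lie above all Dox and untreated libraries of the same line, and those of Lef1 lie below all untreated libraries.

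Axin2 (ENSMUSG00000000142, chromosome 11, 108920349 to 108950783, GRCm38) encodes a scaffold of the destruction complex and is a widely used readout of Wnt signalling, since it feeds back on its own inducer. SPOC Dox+Auxin libraries held 93.1, 95.1, 86.2, 97.2 and 94.3 CPM in replicate order, against 67.0, 67.9, 65.0, 68.7 and 66.9 with Dox and 70.4, 66.3, 69.4, 71.3 and 66.5 untreated. GFP Dox+Auxin libraries held 105, 98.0, 89.5 and 104 CPM, against 69.5, 68.2, 67.8 and 73.0 with Dox and 65.7, 58.8, 63.0 and 60.8 untreated. Every Dox+Auxin library was above every other library of its line. Against Dox, Axin2 rose by 0.47 on the log2 scale in the SPOC line (SE 0.04, edgeR adjusted p = 1.7e-10) and by 0.51 in the GFP line (SE 0.04, adjusted p = 6.4e-11). Against untreated cells the log2 fold change was 0.44 in the SPOC line and 0.68 in the GFP line. Dox alone raised Axin2 in the GFP line (log2 fold change 0.17, SE 0.04, adjusted p = 0.0066), while in the SPOC line the value was -0.04 (95% interval -0.11 to 0.04, adjusted p = 0.64), and -0.05 (adjusted p = 0.54) with SPOC untreated replicate 2 left out.

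Nkd1 (ENSMUSG00000031661, chromosome 8, 88521354 to 88594884) encodes a cytoplasmic feedback inhibitor that binds Dishevelled. It was the scarcest member. The SPOC libraries with Dox+Auxin held 5.06, 4.48, 5.75, 4.30 and 4.30 CPM, against 4.04, 3.97, 4.23, 3.71 and 2.98 with Dox and 4.83, 4.33, 5.08, 3.76 and 4.37 untreated. The GFP libraries with Dox+Auxin held 5.84, 5.65, 5.88 and 5.51 CPM, against 4.20, 3.81, 4.28 and 4.06 with Dox and 4.36, 3.69, 4.00 and 4.16 untreated. In both lines the Dox+Auxin libraries were above all Dox libraries, and in the GFP line also above all untreated ones. Nkd1 rose against Dox by 0.34 on the log2 scale in the SPOC line (SE 0.10, adjusted p = 0.0083) and by 0.49 in the GFP line (SE 0.11, adjusted p = 3.0e-04). Against untreated cells it rose in the GFP line, by 0.50 (SE 0.10, adjusted p = 2.8e-04), and stood at 0.10 in the SPOC line (95% interval -0.09 to 0.29, adjusted p = 0.46), or 0.09 (adjusted p = 0.55) with SPOC untreated replicate 2 left out.

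Sp5 (ENSMUSG00000075304, chromosome 2, 70474923 to 70477729) encodes a zinc finger transcription factor of the Sp family that is a direct target of beta-catenin. SPOC Dox+Auxin libraries held 65.8, 64.6, 70.3, 70.8 and 81.9 CPM, against 45.3, 41.1, 48.3, 41.5 and 44.9 with Dox and 50.2, 47.1, 55.4, 51.4 and 52.4 untreated. GFP Dox+Auxin libraries held 72.0, 65.9, 73.5 and 77.6 CPM, against 47.5, 40.1, 42.2 and 47.4 with Dox and 52.9, 39.2, 51.3 and 48.8 untreated. The Dox+Auxin libraries overlapped no other group of their line. The rise against Dox was 0.68 on the log2 scale in the SPOC line (SE 0.07, adjusted p = 1.0e-07) and 0.71 in the GFP line (SE 0.08, adjusted p = 8.0e-08). Against untreated cells it was 0.46 in the SPOC line (SE 0.07, adjusted p = 2.2e-05) and 0.59 in the GFP line (SE 0.08, adjusted p = 2.1e-06).

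T (ENSMUSG00000062327, chromosome 17, 8434423 to 8442496), also called Brachyury, encodes the T-box factor that marks the primitive streak and early mesoderm. SPOC Dox+Auxin libraries held 15.8, 16.5, 21.8, 12.7 and 19.1 CPM, against 12.5, 11.4, 17.4, 10.5 and 15.9 with Dox and 17.9, 16.1, 23.7, 20.9 and 20.8 untreated. GFP Dox+Auxin libraries held 21.4, 20.4, 20.02 and 18.9 CPM, against 12.6, 12.2, 12.2 and 12.3 with Dox and 19.6, 14.2, 19.3 and 17.7 untreated. The Dox libraries were the low ones. In the GFP line they overlapped neither other group, and in the SPOC line they overlapped both. The overlap with SPOC untreated libraries came from the one labelled replicate 2, at 16.1 CPM. Without it the untreated libraries ran from 17.9 to 23.7, above the highest SPOC Dox library at 17.4.

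Dox against untreated lowered T by 0.55 on the log2 scale in the SPOC line (log2 fold change -0.55, SE 0.14, adjusted p = 0.0080) and by 0.52 in the GFP line (log2 fold change -0.52, SE 0.15, adjusted p = 0.016). Without the SPOC library labelled untreated replicate 2 the SPOC value was -0.62 (adjusted p = 0.0033). Without GFP untreated replicate 1 the GFP value was -0.47 and no longer passed (adjusted p = 0.052). With auxin, T was higher than with Dox in the GFP line (log2 fold change 0.71, SE 0.15, adjusted p = 4.3e-04). In the SPOC line the value was 0.34 (SE 0.14, 95% interval 0.07 to 0.61, adjusted p = 0.061), which passed the threshold when SPOC Dox replicate 3 (0.45, adjusted p = 0.015), SPOC Dox replicate 5 (0.41, adjusted p = 0.038), SPOC Dox+Auxin replicate 4 (0.43, adjusted p = 0.015) or GFP untreated replicate 2 (0.34, adjusted p = 0.049) was left out. DESeq2's Wald test called it too (0.34, adjusted p = 0.026), as did edgeR with the replicate number as a block (0.35, adjusted p = 0.0028), although the numbers did not pair all libraries of that comparison. Dox+Auxin against untreated gave -0.21 in the SPOC line (95% interval -0.47 to 0.06) and 0.19 in the GFP line (95% interval -0.10 to 0.48), and neither passed. Without the SPOC library labelled untreated replicate 2 the SPOC value was -0.27 (adjusted p = 0.14). With the replicate number as a block, all libraries included, the SPOC value was -0.22 and passed (adjusted p = 0.039).

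Lef1 (ENSMUSG00000027985, chromosome 3, 131110471 to 131224356) encodes a partner of beta-catenin on DNA and is itself a Wnt target. Lef1 was at 26.4, 21.9, 25.5, 12.8 and 14.3 CPM in SPOC Dox+Auxin libraries, against 33.4, 38.7, 34.3, 27.5 and 29.6 with Dox and 63.2, 54.5, 54.5, 48.5 and 51.3 untreated. It was at 41.2, 33.7, 32.3 and 24.8 CPM in GFP Dox+Auxin libraries, against 51.2, 51.9, 47.3 and 39.1 with Dox and 70.7, 69.0, 69.4 and 56.6 untreated. The 3 SPOC groups did not overlap each other. In the GFP line Dox+Auxin and Dox overlapped by 1 library each, and both lay below all untreated libraries.

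Against untreated cells, Lef1 fell by 1.43 on the log2 scale with Dox+Auxin in the SPOC line (log2 fold change -1.43, SE 0.17, adjusted p = 9.7e-07), the largest change of any member in any comparison, and by 1.01 in the GFP line (log2 fold change -1.01, SE 0.18, adjusted p = 1.1e-04). Dox alone lowered Lef1 in the SPOC line (log2 fold change -0.73, SE 0.16, adjusted p = 0.0036). In the GFP line the value was -0.49 (SE 0.18, adjusted p = 0.052), just short of the threshold, although the groups did not overlap. DESeq2's Wald test called it (-0.49, adjusted p = 0.040), as did edgeR fitted to only the groups compared (-0.48, adjusted p = 0.012) and edgeR with the replicate number as a block (-0.49, adjusted p = 0.0025). In that comparison 3 of 4 same-numbered pairs correlated over 0.1 (lowest 0.060), although all 4 Dox libraries correlated best with their own number. The GFP fall of Lef1 with Dox passed in 7 of the 27 fits that left out 1 library, with adjusted p of 0.027 to 0.046. These were the fits without SPOC Dox+Auxin replicate 1, 3, 4 or 5, GFP untreated replicate 4, or GFP Dox+Auxin replicate 1 or 4.

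Auxin with doxycycline lowered Lef1 further than Dox did. The log2 fold change against Dox was -0.69 in the SPOC line (SE 0.17, adjusted p = 0.0033) and -0.52 in the GFP line (SE 0.18, adjusted p = 0.021). The GFP call was lost without GFP Dox replicate 1 (-0.48, adjusted p = 0.055), GFP Dox replicate 2 (-0.47, adjusted p = 0.059) or GFP Dox+Auxin replicate 4 (-0.40, adjusted p = 0.083).

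Tcf7 (ENSMUSG00000000782, chromosome 11, 52252371 to 52283014, minus strand) encodes TCF1, another DNA-binding partner of beta-catenin and a Wnt target. SPOC Dox+Auxin libraries held 78.8, 78.8, 79.9, 69.3 and 76.9 CPM, against 62.5, 73.4, 75.8, 64.2 and 70.1 with Dox and 75.4, 75.3, 80.5, 70.4 and 76.3 untreated. GFP Dox+Auxin libraries held 94.2, 87.5, 88.9 and 83.5 CPM, against 70.9, 76.5, 72.7 and 68.9 with Dox and 77.2, 74.4, 74.1 and 73.0 untreated. In the GFP line the Dox+Auxin libraries lay above all others, whereas the 3 SPOC groups overlapped. Tcf7 rose against Dox in the GFP line (log2 fold change 0.29, SE 0.05, adjusted p = 2.8e-05) and in the SPOC line (0.15, SE 0.05, adjusted p = 0.016). The SPOC call was lost without SPOC Dox replicate 1 (0.12, adjusted p = 0.061) or replicate 4 (0.12, adjusted p = 0.058), and with only the groups compared in the fit (0.14, adjusted p = 0.063). Against untreated cells Tcf7 rose by 0.25 in the GFP line (SE 0.05, adjusted p = 3.4e-04) and stood at 0.02 in the SPOC line (95% interval -0.07 to 0.11, adjusted p = 0.76), or 0.03 (adjusted p = 0.75) with SPOC untreated replicate 2 left out.

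Tcf7 and Lef1, whose proteins bind the same sequence, moved apart in Dox+Auxin against Dox. Against untreated cells the change in their ratio came mostly from Lef1. With Dox+Auxin, Tcf7 and Lef1 stood at 0.02 and -1.43 in the SPOC line and 0.25 and -1.01 in the GFP line. With Dox they stood at -0.13 and -0.73 in the SPOC line and -0.05 and -0.49 in the GFP line. Per length, the ratio of Tcf7 to Lef1 was 13.7 ± 4.01 in SPOC Dox+Auxin, 7.16 ± 0.795 in SPOC Dox and 4.68 ± 0.408 in SPOC untreated libraries (SD, n = 5), or 4.69 ± 0.470 without the one labelled replicate 2. It was 9.21 ± 1.51 in GFP Dox+Auxin, 5.16 ± 0.541 in GFP Dox and 3.79 ± 0.355 in GFP untreated libraries (SD, n = 4). In each line the lowest Dox+Auxin ratio, 9.99 in SPOC and 7.66 in GFP cells, was above the highest Dox ratio, 7.93 in SPOC and 5.91 in GFP cells. The union of all annotated exons was taken as the length, and Lef1 has several transcripts, so the absolute ratio depends on that choice.

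Cdx1 (ENSMUSG00000024619, chromosome 18, 61018862 to 61036199, minus strand) encodes a caudal-type homeobox factor that patterns the posterior embryo and responds to Wnt and retinoic acid. SPOC Dox+Auxin libraries held 52.7, 57.6, 73.9, 57.1 and 57.8 CPM, against 71.5, 70.7, 90.5, 73.8 and 69.2 with Dox and 70.3, 84.5, 84.5, 68.4 and 61.9 untreated. GFP Dox+Auxin libraries held 58.8, 44.6, 53.3 and 54.0 CPM, against 106, 86.1, 86.9 and 92.8 with Dox and 95.9, 74.0, 91.4 and 96.8 untreated. The GFP Dox+Auxin libraries lay below all others of the line. In the SPOC line replicate 3 was the highest library of both the Dox+Auxin and the Dox group, and the groups overlapped.

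Cdx1 fell against Dox by 0.82 on the log2 scale in the GFP line (log2 fold change -0.82, SE 0.12, adjusted p = 6.9e-06) and by 0.33 in the SPOC line (log2 fold change -0.33, SE 0.11, adjusted p = 0.023). The SPOC call was lost without SPOC Dox replicate 3 (-0.25, adjusted p = 0.088), SPOC Dox+Auxin replicate 1 (-0.29, adjusted p = 0.064) or SPOC Dox+Auxin replicate 4 (-0.31, adjusted p = 0.050), and with no filter on low counts (-0.33, adjusted p = 0.051). Against untreated cells the GFP line gave -0.76 (SE 0.12, adjusted p = 2.6e-05) and the SPOC line -0.31 (SE 0.11, adjusted p = 0.034). Without the SPOC library labelled untreated replicate 2 the SPOC value was -0.25 and did not pass (adjusted p = 0.10). It was lost as well without SPOC untreated replicate 3 (adjusted p = 0.11) or SPOC Dox+Auxin replicate 1 (0.088), 2 (0.068), 4 (0.069) or 5 (0.064), with no filter on low counts (adjusted p = 0.073) and with only the groups compared in the fit (adjusted p = 0.068).

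**Figure D2:**
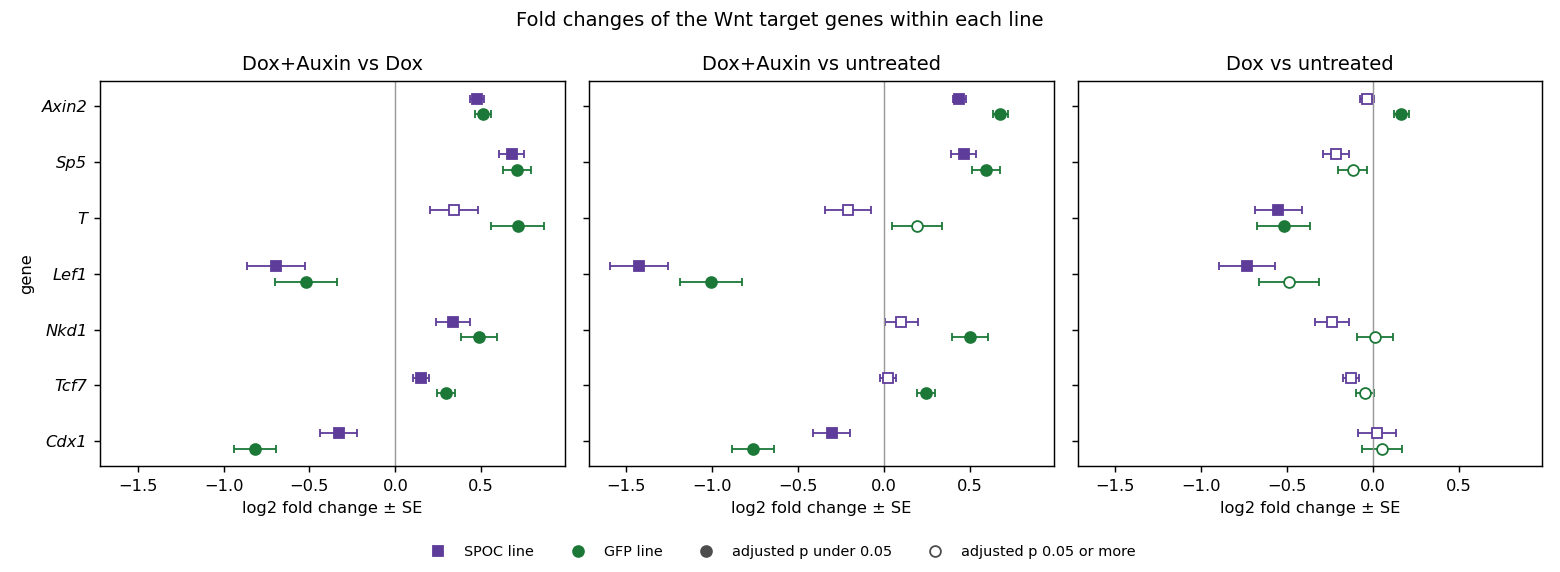
Log2 fold change of each member within each line for Dox+Auxin against Dox, Dox+Auxin against untreated and Dox against untreated. Squares (SPOC line) and circles (GFP line) are edgeR estimates, bars are 1 SE either side, filled symbols passed an adjusted p of 0.05 and open symbols did not. Axin2 and Sp5 lie right of 0 and Lef1 and Cdx1 left of 0 in both comparisons with Dox+Auxin.

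The 3 comparisons within a line share their libraries, so their values are set side by side and not counted as independent. Dox+Auxin against untreated changed 4 of 7 members in the SPOC line, Axin2 and Sp5 upward and Lef1 and Cdx1 downward, where 33.3% of all genes were called (16.7% higher, 16.6% lower). Without the SPOC library labelled untreated replicate 2, Cdx1 dropped out and 3 remained: Axin2 at 0.43 (edgeR adjusted p = 4.8e-09), Sp5 at 0.44 (adjusted p = 1.1e-04) and Lef1 at -1.42 (adjusted p = 3.4e-06). In that fit 5795 genes were called, against 6117 with it. The GFP line had 6 of 7 changed, Axin2, Sp5, Nkd1 and Tcf7 upward and Lef1 and Cdx1 downward, where 38.2% of all genes were called (19.9% higher, 18.4% lower).

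Dox against untreated changed fewer members. In the SPOC line T and Lef1 fell and no member rose, with 13.5% of all genes called (6.16% higher, 7.33% lower). The GFP line had Axin2 higher and T lower, with 20.9% of all genes called (10.1% higher, 10.8% lower). Without the SPOC library labelled untreated replicate 2, Lef1 stood at -0.73 in the SPOC line (adjusted p = 0.0062), and 2692 genes were called against 2478 with it. Sp5 stood at -0.21 in the SPOC line (adjusted p = 0.059) and became a call, -0.24 (adjusted p = 0.040), when that library was left out, with only the groups compared in the fit (-0.21, adjusted p = 0.012) and in DESeq2 (-0.21, adjusted p = 0.032). Replicate numbers paired the SPOC Dox and untreated libraries, and with the number as a block 5 of 7 members fell in that comparison: T, Lef1, Sp5 (-0.21, adjusted p = 0.0016), Nkd1 (-0.24, adjusted p = 0.025) and Tcf7 (-0.13, adjusted p = 0.0048). In the same fit 4145 of 18363 genes were called (2042 higher, 2103 lower), against 2478 without the block. That fit also joins the SPOC Dox+Auxin libraries by number, although their numbers did not all pair with Dox. It was not run without the SPOC library labelled untreated replicate 2. Without the block, Nkd1, Tcf7 and Cdx1 did not pass in either line. The GFP values were 0.01, -0.05 and 0.05. In the SPOC line edgeR gave -0.24 (adjusted p = 0.12), -0.13 (0.077) and 0.02 (0.92). Leaving out the SPOC library labelled untreated replicate 2 gave -0.25 (0.13), -0.12 (0.10) and 0.08 (0.73). Tcf7 became a SPOC call without SPOC untreated replicate 4 (-0.15, adjusted p = 0.046) or SPOC Dox replicate 3 (-0.16, adjusted p = 0.026).

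The response to auxin under doxycycline was compared between the lines by the interaction, the SPOC minus the GFP log2 fold change of Dox+Auxin against Dox. No member was called in edgeR's test (0 of 7), where 8.14% of all genes were called (3.49% higher, 4.65% lower). An unadjusted p under 0.05 was held by 2 of 7 members and by 4101 of the 18363 genes tested. The difference was -0.04 for Axin2 (95% interval -0.15 to 0.08), -0.03 for Sp5 (-0.25 to 0.18), -0.37 for T (-0.77 to 0.03), -0.17 for Lef1 (-0.66 to 0.31), -0.15 for Nkd1 (-0.43 to 0.13) and -0.14 for Tcf7 (-0.28 to -0.01). It was 0.49 for Cdx1 (0.17 to 0.80, adjusted p = 0.069), whose log2 fold change against Dox was -0.33 in the SPOC line and -0.82 in the GFP line. DESeq2's Wald test called Cdx1 (0.49, adjusted p = 0.030), and edgeR did so without SPOC Dox replicate 3 (0.56, adjusted p = 0.029) or SPOC Dox+Auxin replicate 1 (0.53, adjusted p = 0.0495).

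Between the lines at the same treatment few members differed. With Dox+Auxin, Lef1 was lower in SPOC than in GFP cells (20.2 ± 6.31 CPM, n = 5, against 33.0 ± 6.71, n = 4, SD; log2 fold change -0.71, SE 0.18, adjusted p = 0.0059), as was Tcf7 (76.7 ± 4.32 against 88.5 ± 4.45 CPM; -0.21, SE 0.05, adjusted p = 0.0026). These were 2 of 7 members, where 24.6% of all genes were called (11.2% higher, 13.5% lower). The Lef1 call was lost with only the groups compared in the fit (-0.71, adjusted p = 0.094). Nkd1 stood at -0.26 in that comparison and narrowly failed (adjusted p = 0.053), and passed in DESeq2 (-0.26, adjusted p = 0.044).

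With Dox, Lef1 was lower in SPOC cells (32.7 ± 4.35 against 47.4 ± 5.88 CPM; -0.54, SE 0.17, adjusted p = 0.048), 1 of 7 members where 10.7% of all genes were called (5.36% higher, 5.33% lower). That call failed in 18 of the 27 fits that left out 1 library, with an adjusted p of up to 0.14, and with no filter on low counts (adjusted p = 0.079). These were the fits without SPOC Dox replicate 1, 3, 4 or 5, GFP Dox replicate 1, 2 or 3, SPOC untreated replicate 2, 3, 4 or 5, any GFP untreated replicate, SPOC Dox+Auxin replicate 2, or GFP Dox+Auxin replicate 2 or 3. In untreated cells Axin2 was higher in SPOC cells (68.8 ± 2.29 against 62.1 ± 2.94 CPM; 0.15, SE 0.04, adjusted p = 0.021), where 11.6% of all genes were called (5.79% higher, 5.77% lower). It failed without SPOC untreated replicate 1 (0.14, adjusted p = 0.051) or 4 (0.14, adjusted p = 0.057), or GFP untreated replicate 2 (0.12, adjusted p = 0.11) or 4 (0.14, adjusted p = 0.060). Without the SPOC library labelled untreated replicate 2 the Axin2 value was 0.16 (adjusted p = 0.024), and with no filter on low counts it failed (0.13, adjusted p = 0.069).

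Levels of different members were compared per length, as CPM per kilobase of annotated exon. Cdx1 was the highest in SPOC Dox (42.9), SPOC untreated (42.2), GFP Dox (53.1) and GFP untreated (51.1) libraries, with no overlap with the next member, Tcf7. In SPOC Dox+Auxin libraries Cdx1 (34.2) overlapped with both Sp5 (33.7) and Tcf7 (29.2), and Sp5 lay above Tcf7 without overlap. In GFP Dox+Auxin libraries Sp5 (34.4), Tcf7 (33.7) and Cdx1 (30.1) did not differ beyond their spread. Axin2 followed, at 16.9 in SPOC Dox+Auxin, 12.2 in SPOC Dox, 12.5 in SPOC untreated, 17.99 in GFP Dox+Auxin, 12.6 in GFP Dox and 11.3 in GFP untreated libraries. T and Lef1 came next and overlapped in SPOC untreated, GFP Dox and GFP untreated libraries. The overlap in SPOC untreated libraries came from the one labelled replicate 2, without which T ran from 7.73 to 10.2 and Lef1 from 5.52 to 7.19. Without that library the SPOC untreated mean was 40.7 for Cdx1 and 12.6 for Axin2. With Dox+Auxin in either line, and with Dox in the SPOC line, T was above Lef1 without overlap. Nkd1 was the lowest in every group, between 0.831 (SPOC Dox) and 1.255 (GFP Dox+Auxin).

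**Figure D3:**
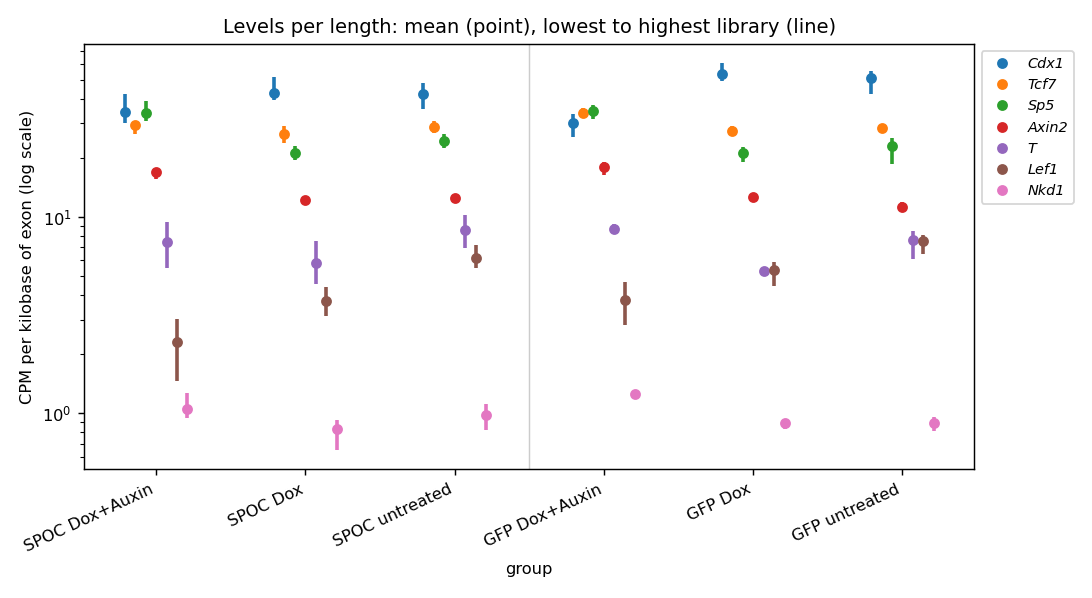
Level of each member per length (CPM per kilobase of annotated exon, log axis) in the 6 groups. Points are group means and lines run from the lowest to the highest library. Cdx1 stands highest outside the Dox+Auxin groups and Nkd1 lowest throughout, and the distance between Tcf7 and Lef1 is widest in SPOC Dox+Auxin libraries.

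The members differed in how tightly replicates agreed. The within-group coefficient of variation, pooled over the 6 groups, was 4.48% for Axin2, 5.38% for Tcf7, 8.69% for Sp5, 9.59% for Nkd1, 12.1% for Cdx1, 14.9% for T and 17.9% for Lef1, against a median of 6.42% over genes of at least 1 CPM. Antisense genes overlap Axin2, Lef1 and Tcf7 in the annotation and averaged 0.0978 to 0.794 CPM, far under their partners, although the sources used here do not say whether reads were counted by strand.

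Over the 27 libraries, the genes whose log2 CPM followed a member most closely were found among 12316 named genes of at least 1 CPM. Libraries of a group share treatment and all points share the scaling, so the Pearson correlations describe these libraries only. Axin2 was followed by Zfp385a (r = 0.97), Cyp1a1 (0.97), a cytochrome P450 gene and standard target of the aryl hydrocarbon receptor, and Riox1 (0.95). Sp5 was followed by Sephs2 (0.94), Fbxl14 (0.94) and the Frizzled receptor gene Fzd10 (0.93). Lef1 was followed by Hk2 (0.95), the glycolytic enzyme hexokinase 2, the histone demethylase gene Kdm4b (0.94) and Stc2 (0.94).

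The 3 genes closest to T, Xlr3c (0.88), Nxf3 (0.87) and Pnma5 (0.86), are all on chromosome X, whereas T is on chromosome 17. Xlr3c has near-identical copies, so its own counts are uncertain. Nkd1 was followed by Vkorc1 (0.89), Phlda3 (0.88) and Ada (0.88), Tcf7 by Ninj1 (0.91), Nfx1 (0.90) and Dlst (0.89), and Cdx1 by H1f0 (0.94), Smpdl3b (0.92) and Bach2 (0.92).

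The rest of the pathway was read from 8 lists, of which some share genes, in the comparison of Dox+Auxin with Dox. Their counts are read against the shares of all genes given above for this comparison. The median log2 fold change of all genes tested was -0.01 in the SPOC line and 0.00 in the GFP line.

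Among 15 ligand and secretion genes tested, 4 rose and none fell in the SPOC line (median log2 fold change 0.18), and 9 rose and 1 fell in the GFP line (median 0.73). Wnt3, a ligand needed for primitive streak formation, was scarce. It held 1.09 to 3.72 CPM in SPOC Dox+Auxin against 0.290 to 1.78 in SPOC Dox libraries (log2 fold change 1.20, SE 0.33, adjusted p = 0.0074, or 0.055 with only the groups compared in the fit), and 2.24 to 3.29 CPM in GFP Dox+Auxin against 0.528 to 0.862 in GFP Dox libraries (2.01, SE 0.39, adjusted p = 1.3e-04). Wnt5b rose by 0.43 in the SPOC line (adjusted p = 6.8e-04) and by 0.88 in the GFP line (adjusted p = 3.2e-08). Porcn, the X-linked enzyme that adds the lipid Wnt proteins need for secretion, rose by 0.34 in the SPOC line (adjusted p = 0.010) and 0.73 in the GFP line (adjusted p = 3.7e-06). Wnt9a rose in the SPOC line by 0.43 (adjusted p = 0.037), a call lost in DESeq2 (adjusted p = 0.058), with no filter on low counts (0.090) and with only the groups compared in the fit (0.088), and without SPOC Dox replicate 1, 3 or 5 or SPOC Dox+Auxin replicate 1, 3 or 4, with adjusted p of up to 0.11. The gene that fell in the GFP line was the scarce ligand gene Wnt3a, named after its values were seen, at 0.158 ± 0.0481 CPM in GFP Dox+Auxin against 0.511 ± 0.202 in GFP Dox libraries (SD, n = 4; log2 fold change -1.71, SE 0.36, edgeR adjusted p = 2.2e-04).

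Of 20 receptor and R-spondin genes tested, 9 rose and 1 fell in the SPOC line, and 12 rose and 1 fell in the GFP line, with a median of 0.26 in both. The Frizzled genes moved both ways. Fzd10 held 96.5 to 114 CPM in SPOC Dox+Auxin against 62.3 to 71.8 in SPOC Dox libraries (0.67, SE 0.06, adjusted p = 4.0e-10), and 96.9 to 113 CPM in GFP Dox+Auxin against 61.6 to 68.1 in GFP Dox libraries (0.65, SE 0.06). Fzd7 rose by 0.83 and Fzd8 by 0.92 in the GFP line, and by 0.37 and 0.58 in the SPOC line. Ror1, a receptor for Wnt5a, rose by 0.64 in the SPOC line and 1.53 in the GFP line. Fzd4 fell, by 0.75 in the SPOC line (log2 fold change -0.75, SE 0.13, adjusted p = 2.7e-05) and by 0.69 in the GFP line (log2 fold change -0.69, adjusted p = 1.6e-04).

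Among 14 secreted and membrane inhibitors tested, 2 rose and 3 fell in the SPOC line (median 0.01), and 4 rose and 5 fell in the GFP line (median -0.22). The secreted Frizzled-related genes went different ways. Sfrp2 rose by 0.69 in the SPOC line and 1.46 in the GFP line, while Sfrp4 fell, at -1.33 in the SPOC line and -1.43 in the GFP line, as did Sfrp1, at -0.35 in the SPOC line and -0.81 in the GFP line. Notum, a secreted enzyme that strips the lipid from Wnt proteins and is a beta-catenin target, rose by 0.19 in the SPOC line (adjusted p = 0.0038) and by 0.39 in the GFP line (adjusted p = 9.0e-07).

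Of 16 genes of the destruction complex and Dishevelled, 3 rose and none fell in the SPOC line (median 0.03), and 6 rose and 2 fell in the GFP line (median 0.08). All changes were small. Csnk1e, a casein kinase, rose by 0.20 in the SPOC line (adjusted p = 0.0029), Csnk1a1 by 0.11 (adjusted p = 1.7e-04) and Csnk1d by 0.07 (adjusted p = 0.039). The Csnk1d call was lost with no filter on low counts (adjusted p = 0.13), with only the groups compared in the fit (0.086), and without SPOC Dox replicate 1, 2, 4 or 5 or SPOC Dox+Auxin replicate 2, 4 or 5, with adjusted p of up to 0.11. In the GFP line Csnk1d rose by 0.22 and Btrc, which hands beta-catenin to the proteasome system, stood at -0.21 (adjusted p = 2.3e-05). Apc was at -0.18 (adjusted p = 0.030), a call lost with no filter on low counts (0.071), with only the groups compared in the fit (0.12), and without GFP Dox replicate 1 or 2 or GFP Dox+Auxin replicate 1 or 3, with adjusted p of up to 0.16.

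Ctnnb1, the gene of beta-catenin, was abundant, with 924 ± 17.9 CPM in SPOC Dox+Auxin, 917 ± 16.1 in SPOC Dox, 942 ± 23.3 in GFP Dox+Auxin and 944 ± 10.6 in GFP Dox libraries (SD). Its log2 fold change was 0.01 in the SPOC line (SE 0.02, adjusted p = 0.76) and -0.00 in the GFP line (SE 0.02, adjusted p = 0.92). Of the 18 nuclear cofactors tested, 3 rose and 7 fell in the SPOC line (median -0.01), and 4 rose and 8 fell in the GFP line (median -0.08). The Groucho-type corepressors moved apart. Tle4 fell, at -0.36 in the SPOC line and -0.58 in the GFP line, and so did Aes, a short relative that lacks the repressive domain, at -0.29 in the SPOC line and -0.59 in the GFP line. Tle1 rose by 0.29 in the SPOC line and 0.38 in the GFP line. Tcf7l1 held 123 ± 10.5 CPM in SPOC Dox+Auxin against 132 ± 3.65 in SPOC Dox libraries (-0.10, adjusted p = 0.074) and 122 ± 4.37 in GFP Dox+Auxin against 139 ± 1.184 in GFP Dox libraries (-0.19, SE 0.05, adjusted p = 8.9e-04).

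Of 20 other beta-catenin targets tested, 5 rose and 5 fell in the SPOC line (median 0.01), and 10 rose and 7 fell in the GFP line (median 0.28). The homeobox gene Msx2 rose by 1.02 in the SPOC line (SE 0.15, adjusted p = 5.6e-06) and by 1.66 in the GFP line (SE 0.18, adjusted p = 4.2e-09). Cdx2 rose while its relative Cdx1 fell. It held 15.3 to 20.2 CPM in SPOC Dox+Auxin against 7.05 to 12.8 in SPOC Dox libraries (0.94, SE 0.18, adjusted p = 3.7e-04), and 17.9 to 24.5 CPM in GFP Dox+Auxin against 6.59 to 9.80 in GFP Dox libraries (1.39, SE 0.20, adjusted p = 5.9e-06). The proto-oncogene Myc fell, at -0.56 in the SPOC line (adjusted p = 0.0015) and -1.28 in the GFP line (adjusted p = 2.0e-07), and so did the cell cycle gene Ccnd2, cyclin D2, at -1.21 in the SPOC line (adjusted p = 2.9e-06).

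Of 6 naive pluripotency genes that Tcf7l1 represses, 1 fell in the SPOC line (median -0.01) and 4 in the GFP line (median -0.17), and none rose. Tfcp2l1 was at -0.26 in the SPOC line (adjusted p = 3.1e-04) and -0.42 in the GFP line (adjusted p = 7.2e-07), and Nr5a2 was at -0.34 in the GFP line (adjusted p = 1.7e-07).

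Of 10 primitive streak and mesoderm genes tested, a list that holds Wnt3 too, 3 rose and 1 fell in the SPOC line (median 0.29), and 5 rose and 2 fell in the GFP line (median 0.58). Evx1, a homeobox gene of the streak, fell. It held 2.03 to 3.72 CPM in SPOC Dox+Auxin against 7.96 to 10.8 in SPOC Dox libraries (log2 fold change -1.69, SE 0.12), and 1.61 to 1.85 CPM in GFP Dox+Auxin against 7.19 to 7.49 in GFP Dox libraries (-2.07, SE 0.15). The growth factor gene Fgf8 rose by 1.14 in the GFP line (SE 0.18, adjusted p = 5.8e-06) and stood at 0.41 in the SPOC line (adjusted p = 0.054). Gsc, goosecoid, rose by 0.49 in the SPOC line (adjusted p = 0.0084).

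**Figure D4:**
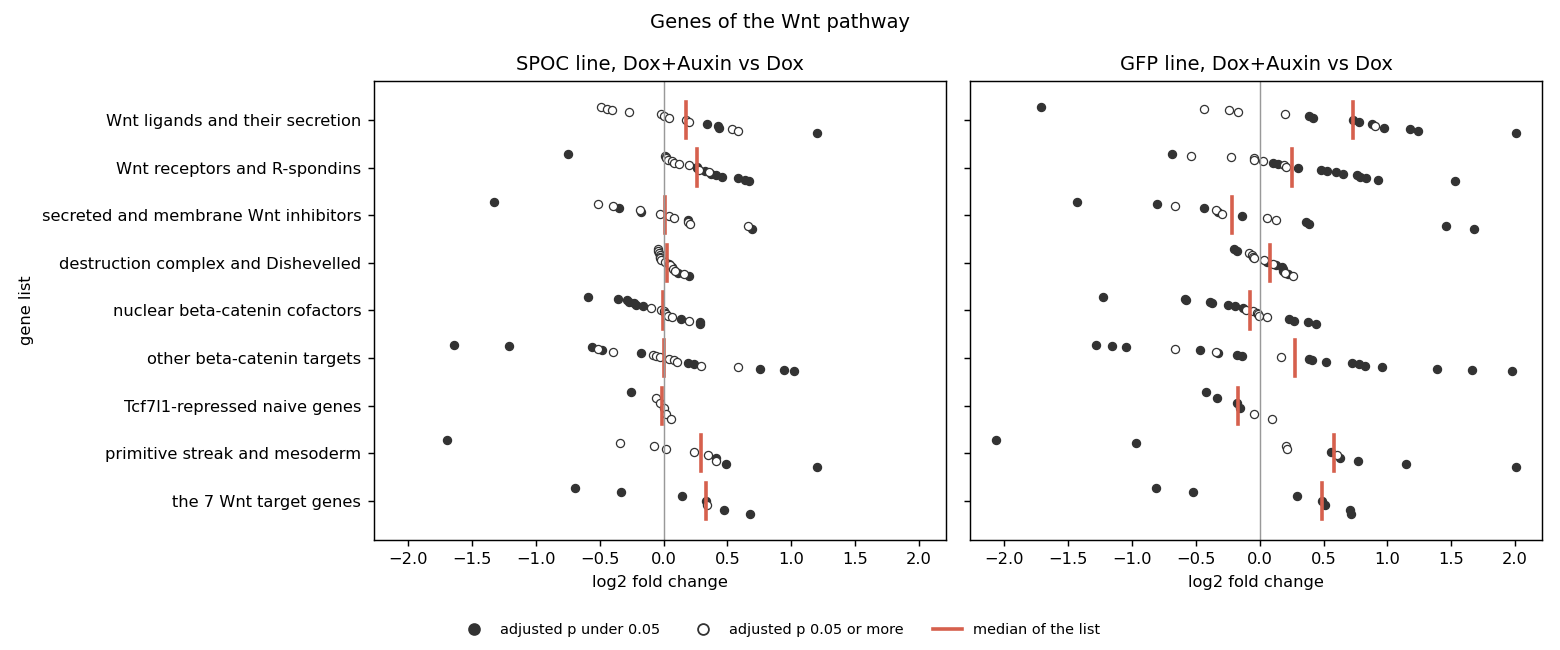
Log2 fold change of Dox+Auxin against Dox for each tested gene of the 8 Wnt lists and for the 7 Wnt target genes (bottom row), with the SPOC line in the left panel and the GFP line in the right panel. Each point is a gene, filled where it passed an adjusted p of 0.05 in edgeR, and the short lines are list medians. Receptor and ligand medians lie above 0 in both lines, at 0.26 and 0.18 in the SPOC line and 0.26 and 0.73 in the GFP line.

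Markers of other cell types were read in the same libraries, and fewer cells of a type and less RNA per cell cannot be told apart in these bulk samples. The summed level of 6 trophoblast markers was 29.9 to 45.6 CPM per kilobase in SPOC Dox+Auxin against 19.98 to 26.5 in SPOC Dox libraries, and 47.8 to 49.6 in GFP Dox+Auxin against 21.6 to 22.6 in GFP Dox libraries. Tfap2c and Cdx2 made most of it, while Elf5 held at most 0.0458 in any library. The members that rose were Cdx2, given above, and Tfap2c (log2 fold change 0.88 in the SPOC line and 1.19 in the GFP line), with Krt7 in the GFP line (0.92), while Gata3 fell in the SPOC line (-0.87). The sum of 6 neural markers, carried by Tubb3, was 67.5 to 93.8 in SPOC Dox+Auxin against 54.3 to 71.4 in SPOC Dox libraries, and 71.3 to 76.9 in GFP Dox+Auxin against 62.0 to 73.7 in GFP Dox libraries. Tubb3 stood at 0.21 in the SPOC line (adjusted p = 0.12) and -0.14 in the GFP line (adjusted p = 0.32). Nes, the intermediate filament gene of neural progenitors, rose by 1.12 in the SPOC line (adjusted p = 1.6e-14) and 1.33 in the GFP line (adjusted p = 9.2e-16). The scarce transcription factor genes went different ways, Pax6 rising by 1.56 in the SPOC line and 2.22 in the GFP line and Sox1 falling, at -0.88 in the SPOC line and -1.17 in the GFP line. The 8 embryonic stem cell markers summed to 3072 to 3368 in SPOC Dox+Auxin against 3234 to 3408 in SPOC Dox libraries, and 2901 to 3103 in GFP Dox+Auxin against 3110 to 3330 in GFP Dox libraries. The 15 primitive streak and mesoderm genes summed to 9.99 to 12.2 in SPOC Dox+Auxin against 10.5 to 13.2 in SPOC Dox libraries, and 11.3 to 12.7 in GFP Dox+Auxin against 10.3 to 10.9 in GFP Dox libraries. Primitive endoderm markers summed to 1.35 to 1.76 in SPOC Dox+Auxin against 1.505 to 2.29 in SPOC Dox libraries and to 1.49 to 1.80 in GFP Dox+Auxin against 1.56 to 1.94 in GFP Dox libraries. Fibroblast markers, mostly Thy1, summed to 5.62 to 6.81 in SPOC Dox+Auxin against 7.17 to 7.86 in SPOC Dox libraries and to 5.88 to 6.47 in GFP Dox+Auxin against 7.26 to 8.17 in GFP Dox libraries. The part of these lists in the changes of the Wnt target genes was not tested.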

How the data were processed

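The 27 libraries form 6 groups of line and treatment, taken from the labels. Per the labels' protocols, RNA was made into TruSeq libraries and sequenced as paired ends. The submitters' processing notes list the build mm10, featureCounts, STAR 2.5.3a, DESeq2 1.18.1, Trim Galore 0.4.4 and Picard 2.18.2 without saying what each did. The sources used here name neither the annotation nor the strand setting. Raw read counts per gene, deposited by the authors, were used, and the same table holds a deposited signal per gene in columns headed RPKM. That deposited signal was 34.6 times the CPM per kilobase of GENCODE exon for 92.3% of 12030 genes, within 0.1%, so levels per length were computed from the counts instead. Another 54 columns of counts by allele were not used, since in 27 of 27 libraries they matched the totals of another library best. The design text speaks of 4 biological replicates, while the SPOC groups held 5, so p-values measure only the spread between these samples.

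IDs were matched to GENCODE M21 (GRCm38), which held 53706 of 53801. After filterByExpr, which kept 18363 genes, and TMM scaling, counts were fitted to all 27 libraries, with 1 term for each group, in edgeR 4.0.16 (R 4.3.3, limma 3.58.1; robust quasi-likelihood fit). p-values were adjusted by the Benjamini-Hochberg method over all genes in each of 10 comparisons and called at 0.05. The SE was taken from the log2 fold change and the F statistic, and 95% intervals are 1.96 SE. The steps were tested on simulated counts. No pair of libraries within a group agreed within sampling noise. The closest pair was SPOC Dox+Auxin replicates 1 and 2, with a chi-square per gene of 1.76. All other pairs had 2.75 or more. Whether those 2 libraries shared a culture was not tested, and they were counted as separate libraries. Alternatives were DESeq2 1.42.0, its size factors, no filter on low counts, fits to only the groups compared, the replicate number as a block, and each library left out. Same-numbered libraries deviated together (every correlation over 0.1) for GFP Dox+Auxin and untreated (0.245 to 0.447), SPOC Dox and untreated (0.131 to 0.525) and SPOC Dox+Auxin and untreated (0.144 to 0.419), which pairs them, and not for the other comparisons within lines. Pairing was judged by that cut alone. For GFP Dox and untreated the lowest correlation was 0.060, yet all 4 Dox libraries correlated best with their own number. For SPOC Dox and untreated 4 of 5 did so, replicate 2 being the exception. The numbers come from the sample titles.

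The members and lists were chosen with earlier results of these data known. The 8 Wnt lists held 131 symbols, of which 130 were in the table, and the marker lists of other cell types are not in that count. Named were the members, Xist and Spen, up to 3 called genes of at least 1 CPM per list and comparison by size of the fold change, and for each member the 3 genes of highest correlation of log2 CPM (prior count 2). Notum, Wnt3a, Ctnnb1, Tcf7l1 and the values of Fgf8, Fzd7, Fzd8, Porcn and Tle1 in the other line were added after their values were seen.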

Additional observations from a re-analysis of the deposited data

Results flagged for a closer look

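In 54 checks of a gene within a group, 5 libraries lay apart from the rest of their group by Dixon's test, which chance does in about 1 of 20 groups. Cdx1 was high in SPOC Dox replicate 3, at 90.5 CPM against 69.2 to 73.8 in the other 4, and in SPOC Dox+Auxin replicate 3, at 73.9 CPM against 52.7 to 57.8. Tcf7 was low in SPOC Dox+Auxin replicate 4, at 69.3 CPM against 76.9 to 79.9. Lef1 was low in GFP untreated replicate 4, at 56.6 CPM against 69.0 to 70.7. Xist was high in the SPOC library labelled untreated replicate 2, at 178 CPM against 1.03 to 1.69. The 2 Cdx1 values carry the same replicate number. Over genes of at least 1 CPM, these 2 libraries deviated together from their group means (correlation 0.643). What those cultures shared was not tested.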

How the results depend on the processing

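No member and no list gene named changed direction with a call under the alternatives run. Xist in SPOC against GFP untreated libraries did (log2 fold change 2.54, adjusted p = 0.11, in edgeR): it was -2.11 without the SPOC library labelled untreated replicate 2, and ran from -2.11 to 2.85 over libraries left out. With the replicate number as a block, which pairs SPOC Dox with untreated libraries, members called in that comparison became 5 of 7, all lower. Genes called became 4145 of 18363 (2042 higher, 2103 lower). For the 7 members, the block changed no call besides those given here and in the report. It raised the number of genes called in each comparison within a line and moved 11 of 56 list counts by over 1.5 times, of which 1 is a count given in the report (destruction complex and Dishevelled in SPOC Dox+Auxin against Dox, 5 higher). For the comparisons where the numbers did not pair every library, the block gave Lef1 in GFP Dox against untreated an adjusted p of 0.0025, T in SPOC Dox+Auxin against Dox 0.0028 (log2 fold change 0.35), and the interaction 2 members (Cdx1 and Tcf7) and 3317 genes. SPOC against GFP could not be fitted with the block, since the numbers are nested in the lines. With no filter on low counts, members called became 0 in SPOC against GFP, both untreated and with Dox. With only the groups compared in the fit they became 2 untreated and 1 with Dox+Auxin. Members called became 5 in SPOC Dox+Auxin against Dox under each of these settings (Cdx1 lost with no filter, Tcf7 with only the groups compared) and 3 in SPOC Dox+Auxin against untreated (Cdx1 lost under both). DESeq2 called 1 member in the interaction and 7 in SPOC Dox+Auxin against Dox. Of the list counts in the report, DESeq2 gave 5 ligand genes higher in the GFP line, and only the groups compared gave 2 ligand genes higher and 2 primitive streak genes (1 higher, 1 lower) in the SPOC line.

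Leaving out 1 library at a time, members called ran from 1 to 3 in GFP Dox against untreated, 2 to 4 in SPOC Dox against untreated, 5 to 7 in SPOC and 6 to 7 in GFP Dox+Auxin against Dox, 3 to 4 in SPOC and 6 to 6 in GFP Dox+Auxin against untreated, 0 to 1 in SPOC against GFP untreated and with Dox, 2 to 3 with Dox+Auxin, and 0 to 1 in the interaction. Genes called ran from 1035 to 2299 in SPOC against GFP untreated, with the low values without SPOC untreated replicate 5 (1406) or GFP untreated replicate 1 (1076) or 2 (1035). With Dox they ran from 1260 to 2087, with the low values without GFP Dox replicate 1 (1298) or 2 (1260). Nkd1 had as few as 98 counts in a library, which limits its precision.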
